A study of Danio rerio with 7 samples.

Results

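The proteasome subunit genes of zebrafish were followed through the states of a melanoma and through melanoma cells in which *dgat1a*, which encodes an enzyme of triglyceride synthesis, had been targeted. Members were all genes whose symbol begins with psma, psmb, psmc, psmd, psme, psmf or psmg and a digit. The rule took 54 of 20402 genes in the table of sorted cells and 51 of 20141 genes in the single-cell table, with 55 genes in either table and 50 in both. The symbols *psmb8a*, *psmb11b*, *psme3ip1* and *psmg4* were found only in the first table and *psmd2* only in the second. By name, the 55 members held 9 alpha subunits of the core particle, 7 constitutive beta subunits, 5 immunoproteasome genes (*psmb8a*, *psmb9a*, *psmb10*, *psme1* and *psme2*), the thymoproteasome gene *psmb11b*, 7 ATPases and 13 other subunits of the regulatory particle, 7 assembly chaperones, and 4 other activator or inhibitor genes. The remaining 2, *psmc3ip* and *psme3ip1*, share the name pattern but encode interaction partners, not subunits.

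All tumors were made by TEAZ, the electroporation of plasmids into the skin of adult transgenic zebrafish aged 3 to 6 months, in *casper* fish (*mitfa*-/-;*mpv17*-/-) that carry *mitfa*:*BRAF* V600E and are *p53*-/-. Every fish received MinicoopR-tdT, which restores *mitfa* and marks cells with tdTomato, *mitfa:Cas9*, guides against *ptena* and *ptenb*, and Tol2. Fish of the sgDGAT1a group received a guide against *dgat1a* in addition, and fish of the sgNT group a non-targeting guide, so the controls, which the labels call WT, also carried the *BRAF* and *p53* alleles and the *pten* guides. Cas9 stood under the *mitfa* promoter and guides act as mosaics. In the paper, targeted sequencing of sorted tdTomato+ cells found unedited cells beside *dgat1a* knockout cells, so the sgDGAT1a values come from a mixture. RNA of sorted tdTomato+ cells gave 3 sgDGAT1a and 3 sgNT libraries, and nothing says whether the libraries of a group came from separate fish, so p-values measure only the spread between these libraries. A further sample, with no guide against *dgat1a*, was 1 droplet library of tumor and adjacent tissue of 6 pooled fish, with 3968 cells that the deposited annotation assigns to 5 melanoma states (2678 cells) or to the tumor microenvironment (TME, 1290 cells).

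The proteasome is the protease that degrades most proteins marked with chains of ubiquitin. Its core particle is a barrel in which outer rings of alpha subunits gate the entry and inner rings of beta subunits cut the substrate, with the active sites on *psmb5*, *psmb6* and *psmb7*. The regulatory particle binds ubiquitin chains, and its ATPases unfold the substrate and feed it into the core. Under interferon, mammalian cells replace the active beta subunits with the immunoproteasome subunits encoded by *PSMB8*, *PSMB9* and *PSMB10* and cap the core with the activator encoded by *PSME1* and *PSME2*, which changes the peptides that reach MHC class I.

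The sorted-cell values are read counts divided by size factors, called normalized counts here, from which the depth of each library could not be recovered. Their sums lay between 19183895 and 23287404 per library. *dgat1a* had 216, 231 and 240.0 normalized counts in sgDGAT1a libraries, against 799, 747 and 405 in sgNT libraries, with a log2 fold change of -1.44 (SE 0.32, adjusted p = 0.0265). The groups did not overlap for the targeted gene. Within each group, libraries 1 and 2 resembled each other more (Pearson r across genes of 0.963 in sgDGAT1a and 0.962 in sgNT, where genes are not independent replicates) than any other pair, whose r was between 0.799 and 0.903. sgNT 3 had r of 0.866 to 0.885 with the sgDGAT1a libraries, against 0.887 and 0.888 with sgNT 1 and 2. The marker lists of other cell types also differed between the groups. Summed over the markers of each list, keratinocyte genes reached 160491 to 234346 in sgDGAT1a libraries, against 15099, 17243 and 86248 in sgNT 1, 2 and 3. Fibroblast genes reached 57066 to 76972 in sgDGAT1a and 11741 to 14736 in sgNT. Muscle genes reached 6106 to 17815 in sgDGAT1a, against 276, 239 and 1346 in sgNT 1, 2 and 3. Of the tested markers, 4 of 6 keratinocyte, 4 of 4 fibroblast, 3 of 3 muscle, 2 of 4 erythrocyte and 2 of 4 endothelial genes rose past both thresholds described next. Of all genes tested, 8.7% did so. Macrophage markers summed to 75109 to 92477 in sgDGAT1a and 59087 to 71930.2 in sgNT, and neutrophil markers to 4578 to 10376 in sgDGAT1a and 4565 to 10948 in sgNT. The macrophage list was mixed, with 5 of 8 log2 fold changes above 0 and 3 below, and 1 gene called higher. Most of its sum was *cd74a*, with 45542 to 66053 in sgDGAT1a and 36394 to 47044 in sgNT, which overlap. Of 9 melanocyte lineage genes, all present in every library, 4 had a log2 fold change below 0 and 5 above. *sox10* was lower in sgDGAT1a (-0.88, adjusted p = 0.0381, limma), *mitfa* lay at -0.86 (adjusted p = 0.0704), and *tyrp1b*, a pigment synthesis gene, rose by 2.92 on the log2 scale (adjusted p = 0.0449). The list summed to 126226, 123702 and 522565 in sgDGAT1a 1, 2 and 3, against 110258 to 161092 in sgNT libraries, so sgDGAT1a 3 stood apart in this sum, and the calls without that library are given beside the alternatives. In bulk RNA, fewer cells of a type and less RNA per cell cannot be told apart, and the part of these other cell types in the values below was not tested.

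The comparison of sgDGAT1a with sgNT asked how loss of *dgat1a* in melanoma cells changes expression. Most proteasome genes were below sgNT, 3 of the 4 tested immunoproteasome genes and the catalytic subunit *psmb5* furthest, and few passed the test. Differences were tested with limma on log2(normalized count + 1) over 16969 genes (mean of 10 or more), adjusted by the Benjamini-Hochberg method, and 52 of the 54 members passed this filter. Of the 52, 47 had a log2 fold change below 0, against 49% of all genes tested. The median over the members was -0.64 (range -1.62 to 1.24), against 0.02 over all genes tested. Of the 4125 genes whose mean reached 1000, called well-expressed genes here, 61.1% were below 0 (median -0.17), and 44 members were among them, 43 of them below 0. At an adjusted p under 0.05 and a log2 fold change beyond 1, the thresholds of the study's methods, 4 members fell (*psme1*, *psmb10*, *psmb5* and *psmg1*, or 4 of 52) against 3.31% of all genes, and 5.48% of well-expressed genes. No member rose in this limma test, against 8.7% of all genes and 6.35% of the well-expressed ones. At an adjusted p under 0.05 of any size, *psmf1* and *psmd12* were added, which makes 6 of 52 members lower, against 4.23% of all genes and 8.36% of well-expressed genes, and 0 higher, against 8.93% and 7.01%. Among the 44 well-expressed members the counts were the same, 4 and 6 lower and 0 higher. The shares called lower were thus somewhat above the background of genes as well expressed. They rest on few genes and were not tested against it, and it is the direction that differed more. Over all genes, 561 were called lower and 1477 higher, or 793 lower and 1220 higher after quantile normalization, which moved the median of all genes to -0.12 and that of the members to -0.53. At an unadjusted p under 0.05 in the main limma fit, 20 of 52 members were lower and 0 higher, against 2172 and 3249 of all 16969 genes. Among well-expressed genes, 18 of 44 members were lower and 0 higher, against 887 and 518 of 4125.

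**Figure D1:**
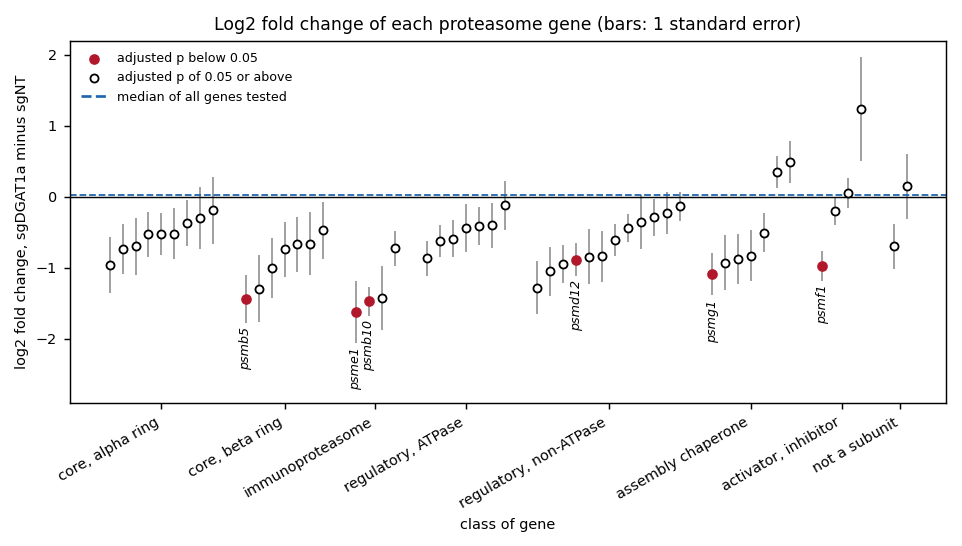
Log2 fold change, sgDGAT1a minus sgNT, of each of the 52 proteasome genes tested (points, with bars of 1 standard error, 3 libraries per group), grouped by class along the x axis. Filled points have an adjusted p below 0.05 (limma), the dashed line is the median of all genes tested at 0.02, and 47 of the 52 points lie below 0.

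The 15 alternatives to this fit moved the calls more than the direction. Between 44 and 49 of the 52 members were below 0 in every alternative in which 52 were tested. Every alternative kept library 1 or 2 of each group, which are alike, so the direction was not tried without them. Between the libraries numbered 3 alone, sgDGAT1a was the higher in 36 of 52 members. Without sgNT 3, 19 members were called, all lower, beside 1371 lower and 2854 higher of all 16963 genes tested. Without sgDGAT1a 3 there were 8, all lower, beside 521 lower and 1070 higher of 16914 genes. Without sgNT 1 or without sgNT 2 only *psmb10* was called among the members, and 406 and 472 genes in all. Without sgDGAT1a 1 or without sgDGAT1a 2 limma called 0 members, and 262 and 108 genes in all. At an unadjusted p under 0.05 these 2 fits had 10 and 11 members, all lower, and 3959 and 3831 genes in either direction. Counting libraries 1 and 2 of each group as a single averaged sample, because of their likeness, also left 0 members and 0 genes called by limma (3 members and 2533 genes at an unadjusted p under 0.05), with a member median of -0.39.

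Nearly all members shared an order of libraries. Within sgDGAT1a, library 3 was the highest in 47 of 52 members (90.4%, against 40.5% of all genes and 59.7% of well-expressed genes). Within sgNT, library 3 was the lowest in 47 of 52 (90.4%, against 39.9% and 53.3%). Both held in 43 members (82.7%, against 20.4% and 36.8%). As the median deviation of the members from their mean over the 6 libraries, in log2 units, sgDGAT1a 1, 2 and 3 lay at -0.59, -0.54 and 0.14, against 0.45, 0.66 and -0.19 in sgNT 1, 2 and 3. sgDGAT1a 3 thus stood above sgNT 3 in 36 of 52 members (69.2%, against 52.1% of all genes and 55.2% of well-expressed genes). sgDGAT1a 1 and 2 stood below all sgNT libraries in 41 (78.8%, against 23.8% and 39.5%). Over all genes the same medians were between -0.01 and 0.05 in every library. Over the well-expressed genes they were -0.16, -0.15 and 0.08 in sgDGAT1a 1, 2 and 3, against 0.13, 0.15 and -0.02 in sgNT 1, 2 and 3, the same order of libraries as in the members with smaller distances. Of 7 tested S and G2/M phase genes, 5 had a log2 fold change below 0, against 49% of all genes and 61.1% of well-expressed genes. Past both thresholds, 1 fell, the proliferation marker *mki67* (-1.57, adjusted p = 0.0212, limma), against 3.31% of all genes and 5.48% of well-expressed genes. The list had sums of 16935, 14454 and 19635 in sgDGAT1a 1, 2 and 3, against 34328, 33399.6 and 14500.0 in sgNT 1, 2 and 3, in which *pcna* had the highest counts. Single genes of the list differed from this order, since *mki67*, *mcm2* and *mcm5* had their highest sgDGAT1a value in library 1, and *mcm2* and *mcm5* lay at 0.11 and 0.40. Keratinocyte marker sums were 234346, 160491 and 228062 in sgDGAT1a 1, 2 and 3, against 15099, 17243 and 86248 in sgNT 1, 2 and 3. The part of the genes of either list in the pattern was not tested.

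**Figure D2:**
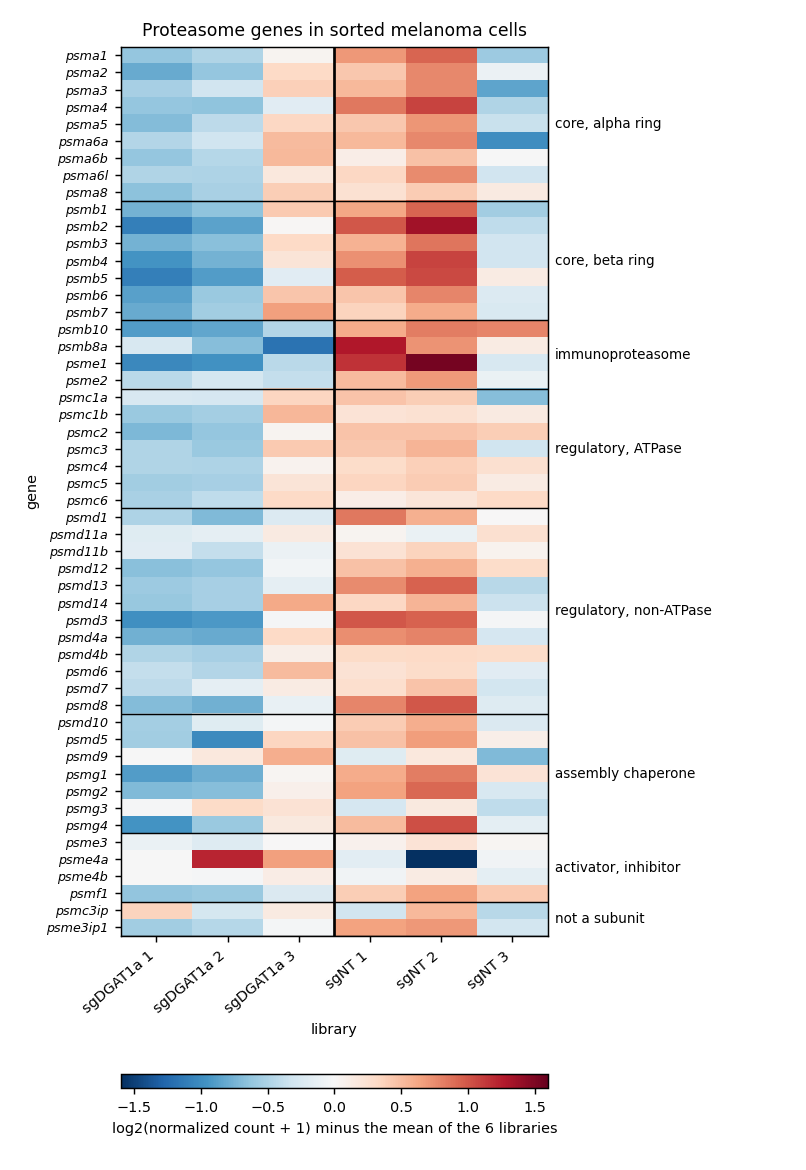
Each row is 1 of the 52 proteasome genes tested, each column a library, and the colour is log2(normalized count + 1) minus the mean of the 6 libraries, blue for below and red for above. sgDGAT1a 1 and 2 are blue and sgNT 1 and 2 red in most rows, sgDGAT1a 3 and sgNT 3 are paler and often change places, and *psmb10* keeps all 3 sgDGAT1a libraries below all 3 sgNT libraries.

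Groups did not overlap in 15 members on the lower side (of 52, against 15.9% of all genes, and 14 of the 44 members against 23.9% of well-expressed genes) and in 1, *psme4a*, on the higher side (against 21.1% of all genes). The 15 were *psmb5*, the immunoproteasome genes *psmb10*, *psmb8a*, *psme1* and *psme2*, the regulatory subunits *psmc2*, *psmc4*, *psmd1*, *psmd3*, *psmd4b*, *psmd11b* and *psmd12*, and *psmg1*, *psme3* and *psmf1*.

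The immunoproteasome genes had the lowest class median, -1.44 over 4 tested members, and in all 4 the groups were apart. *psmb10*, which encodes the counterpart of *psmb7* in the immunoproteasome, had 1591, 1658 and 2135 normalized counts in sgDGAT1a libraries, against 4481, 5219 and 5091 in sgNT libraries. No sgDGAT1a library came near an sgNT library, and *psmb10* fell by 1.47 on the log2 scale (SE 0.20, adjusted p = 0.0084, limma). It kept an adjusted p under 0.05 in 12 of 15 alternatives, the exceptions being the averaged libraries (0.163) and the fits without sgDGAT1a 1 (0.0502) or without sgDGAT1a 2 (0.0567). *psme1*, an activator subunit that caps the core, had 1622, 1698 and 2476 in sgDGAT1a libraries, against 7409.9, 9594 and 2785 in sgNT libraries. The highest sgDGAT1a library was just below sgNT 3, and *psme1* fell by 1.62 on the log2 scale, the furthest of any member tested (SE 0.44, adjusted p = 0.0473), past 0.05 in 7 of 15 alternatives (range 0.00114 to 0.345).

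*psme2*, the partner of *psme1*, had 4370.1, 4818 and 4532 in sgDGAT1a libraries, against 8358, 9449 and 5478 in sgNT libraries, with a log2 fold change of -0.73 (SE 0.25, adjusted p = 0.0853). The sgDGAT1a libraries were nearly level and all below sgNT 3, the lowest control. *psmb8a*, the counterpart of *psmb5*, was scarce, with 92.9, 68.9 and 48.6 in sgDGAT1a libraries, against 272, 184 and 123 in sgNT libraries. All 3 sgDGAT1a libraries were below the lowest sgNT library, and the log2 fold change was -1.42 (SE 0.45, adjusted p = 0.0709). *psmb9a* was listed at 0 in all 3 sgDGAT1a libraries and in sgNT 2 and 3, with 4.02 in sgNT 1, and was not tested, nor was *psmb11b*, whose mammalian counterpart is a thymic subunit and whose highest value was 4.54. In the RefSeq assembly GRCz12tu, used here for gene order only, *psmb8a* and *psmb9a* lie among the antigen processing genes *tapbp.2*, *mhc1uba* and *tap2a*, whereas *psmb10* does not. The symbols *psmb12* and *psmb13a* of the same stretch fit the member rule but were found in neither the sorted-cell nor the single-cell values.

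Among the constitutive beta subunits, all 7 of which had a log2 fold change below 0 (median -0.74), *psmb5*, which carries the chymotrypsin-like site, was the 1 that passed the test. It had 3439, 3959 and 6477 in sgDGAT1a libraries, against 14309, 15282 and 8028 in sgNT libraries. All sgDGAT1a libraries were below sgNT 3, and *psmb5* fell by 1.44 on the log2 scale (SE 0.34, adjusted p = 0.0313), past 0.05 in 8 of 15 alternatives. The other catalytic subunits overlapped between groups. *psmb6*, with the caspase-like site, had 2634, 3191 and 6542 in sgDGAT1a libraries, against 6543, 8240.5 and 4106 in sgNT libraries (log2 fold change -0.67, SE 0.39, adjusted p = 0.279). *psmb7*, with the trypsin-like site, had 4596, 5492 and 12664 in sgDGAT1a libraries, against 10256, 12127 and 6811 in sgNT libraries, so its highest library was sgDGAT1a 3 (log2 fold change -0.47, SE 0.40, adjusted p = 0.466).

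Because *psmb10* replaces *psmb7* in the immunoproteasome, their ratio was formed in each library, after the values had been seen, and read only across libraries, since counts were not divided by gene length. It was 0.346, 0.302 and 0.169 in sgDGAT1a libraries, against 0.437, 0.430 and 0.747 in sgNT libraries. The groups did not overlap, and the ratio was lowest in sgDGAT1a 3 and highest in sgNT 3. These 2 extremes followed *psmb7* and not *psmb10*. sgDGAT1a 3 had the highest *psmb10* of its group (2135) beside the highest *psmb7* (12664). sgNT 3 had 5091 for *psmb10*, below the 5219 of sgNT 2, beside the lowest sgNT *psmb7* (6811). The log2 ratio differed by -0.999 between sgDGAT1a and sgNT, with p = 0.1 in an exact two-sided permutation test, the smallest that 3 against 3 libraries allow, and 0.6 after adjustment over 6 such ratios. The like ratio of *psmb8a* to *psmb5* differed by 0.004 (exact permutation p = 1), with 0.0270, 0.0174 and 0.0075 in sgDGAT1a libraries and 0.0190, 0.01204 and 0.0153 in sgNT libraries. The other 4 ratios, of the paralog pairs *psmd4a* to *psmd4b*, *psmd11b* to *psmd11a*, *psmc1a* to *psmc1b* and *psma6a* to *psma6b*, differed by -0.30 to 0.28 with exact permutation p between 0.2 and 1. Reads of such near copies may have been shared out between them by the quantification, so their separate values are uncertain.

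**Figure D3:**
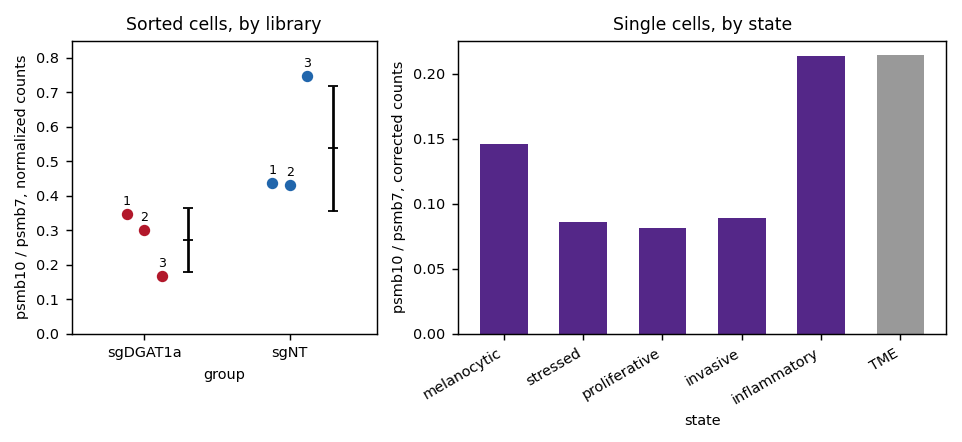
Left, the ratio of *psmb10* to *psmb7* normalized counts in each sgDGAT1a and sgNT library (numbered points, with the mean and 1 SD beside them, n = 3 each). Right, the ratio of mean corrected counts in each state of the single-cell library (bars, no replicates), highest in the inflammatory state and the TME at 0.214 and 0.215.

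All 9 alpha subunits had a log2 fold change below 0 (median -0.53), and limma passed 0 of them (1 lower and 0 higher at an unadjusted p under 0.05). *psma4* was furthest, with 4395, 4315 and 5954 in sgDGAT1a libraries, against 12042, 14206 and 4845 in sgNT libraries (log2 fold change -0.96, SE 0.40, adjusted p = 0.139). sgNT 3 lay among the sgDGAT1a libraries. *psma6a* was nearest to 0, with 1648, 1829 and 3238 in sgDGAT1a libraries, against 3268, 3882 and 1144 in sgNT libraries (log2 fold change -0.19, SE 0.47). Its lowest library was sgNT 3, and its direction turned without sgNT 1 or sgNT 2 (0.02 and 0.14).

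In the regulatory particle all 7 ATPases (median -0.43) and all 12 tested non-ATPases (median -0.72) had a log2 fold change below 0. *psmd12*, a scaffold subunit of the lid, had 2596, 2684 and 4004 in sgDGAT1a libraries, against 5715, 6105 and 5039.9 in sgNT libraries. The groups were apart, and *psmd12* fell by 0.88 on the log2 scale (SE 0.23, adjusted p = 0.0437), past 0.05 in 8 of 15 alternatives. *psmd3*, another scaffold subunit, had 6471, 6809 and 12641 in sgDGAT1a libraries, against 25468, 24699 and 12669 in sgNT libraries. sgDGAT1a 3 and sgNT 3 were almost equal, and the log2 fold change of -1.28 did not pass (SE 0.37, adjusted p = 0.0565). Limma passed 0 ATPases, of which 2 were lower and 0 higher at an unadjusted p under 0.05. *psmc2* was closest, with 3977, 4250.2 and 6734 in sgDGAT1a libraries, against 8949, 8945 and 8594 in sgNT libraries (log2 fold change -0.86, SE 0.25, adjusted p = 0.0539). Its sgNT libraries were level and all above sgDGAT1a. *psmc1a* (-0.12, but 0.08 without sgNT 1 and 0.05 without sgNT 2) and *psmd11a* (-0.13) were the members of the particle nearest to 0.

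Of the 7 assembly chaperones, which build the core and the base of the regulatory particle and then leave, 5 were below 0 (median of all 7 -0.83). *psmg1*, which starts the alpha ring together with *psmg2*, had 2330.2, 2519 and 4420.1 in sgDGAT1a libraries, against 6520.4, 7632 and 5052 in sgNT libraries. The groups were apart, and *psmg1* fell by 1.09 on the log2 scale (SE 0.30, adjusted p = 0.047), past 0.05 in 7 of 15 alternatives. *psmd9*, a chaperone of the ATPase ring, had 734, 824 and 1097 in sgDGAT1a libraries, against 640.1, 827 and 449 in sgNT libraries (log2 fold change 0.49, SE 0.29, adjusted p = 0.287), and the groups overlapped. Among the other regulators, *psmf1*, an inhibitor of the core particle, had 1199, 1227 and 1577 in sgDGAT1a libraries, against 2439, 2908 and 2477 in sgNT libraries. No libraries overlapped, and *psmf1* fell by 0.97 on the log2 scale (SE 0.21, adjusted p = 0.0239), past 0.05 in 8 of 15 alternatives. The activator gene *psme4a* was scarce, with 22.0, 52.9 and 35.4 in sgDGAT1a libraries, against 19.6, 6.43 and 21.3 in sgNT libraries, and its log2 fold change of 1.24 did not pass (SE 0.73, adjusted p = 0.284). The 2 genes that are no subunits lay at -0.70 (*psme3ip1*) and 0.15 (*psmc3ip*, -0.42 after quantile normalization), neither past the test.

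Partners of the proteasome were read from lists beside the members. Of 14 tested proteasome-associated genes, 11 had a log2 fold change below 0 (median -0.69), against 49% of all genes tested. At an adjusted p under 0.05, 2 passed, both lower, against 4.23% of all genes and 8.36% of well-expressed genes. *usp14*, a deubiquitinase bound to the regulatory particle, had 1763, 2067 and 2466 in sgDGAT1a libraries, against 6114, 5791 and 3666 in sgNT libraries, and fell by 1.28 on the log2 scale (SE 0.26, adjusted p = 0.0212). *ecpas*, a scaffold that binds the proteasome, fell by 0.93 (SE 0.22, adjusted p = 0.0313), with the groups apart. Of 5 ubiquitin genes, *uba1*, the enzyme that activates ubiquitin, fell by 0.86 (SE 0.21, adjusted p = 0.0341) and the other 4 did not pass. Of *vcp*, *ufd1l* and *nploc4*, which extract ubiquitinated proteins, limma passed 0 (2 lower and 0 higher at an unadjusted p under 0.05, median -0.74). Of *nfe2l1a*, *nfe2l1b*, *nfe2l2a* and *nfe2l2b*, which are or are kin to inducers of proteasome transcription in mammals, it passed 0 as well (1 lower and 0 higher at an unadjusted p under 0.05). *nfe2l1b* had 1104, 1507 and 809 in sgDGAT1a libraries, against 2120.3, 1884 and 1490.2 in sgNT libraries (log2 fold change -0.71, SE 0.28, adjusted p = 0.118).

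The antigen processing and interferon genes were the partners furthest from 0. Of 19 tested, 17 had a log2 fold change below 0 (median -1.11). Past both thresholds, 8 fell (*tapbp.1*, *tapbp.2*, *b2m*, *mhc1uka*, *erap1a*, *erap1b*, *stat1b* and *isg15*), against 3.31% of all genes and 5.48% of well-expressed genes. *ifngr1*, an interferon gamma receptor chain, rose past them, as did 8.7% of all genes and 6.35% of well-expressed genes. *tapbp.2*, a tapasin gene beside *psmb8a*, had 1084, 973 and 797 in sgDGAT1a libraries, against 3753, 3727 and 2123 in sgNT libraries (log2 fold change -1.71, SE 0.28, adjusted p = 0.0119). *b2m*, the light chain of MHC class I, had 41527, 44696 and 37869 in sgDGAT1a libraries, against 93876, 102353 and 73478 in sgNT libraries (log2 fold change -1.11, SE 0.29, adjusted p = 0.042). In both genes sgNT 3 was the lowest control and still above every sgDGAT1a library. Lymphoid markers were mixed. The natural killer lysin gene *nkl.2* had 118, 228 and 244 in sgDGAT1a libraries, against 12309, 22037 and 3039.9 in sgNT libraries, whereas *cd4-1* and *il2rb* rose in sgDGAT1a. The T and NK list of 9 markers, 1 of which, *cd3eap*, encodes an RNA polymerase subunit in mammals and is no lymphoid gene, had 5 log2 fold changes below 0 and 4 above (median -0.18), with 1 called lower and 2 higher. It summed to 6839 to 8371 in sgDGAT1a and 10529 to 31798 in sgNT, but without *nkl.2* to 6595 to 8143 in sgDGAT1a and 7489 to 9879.8 in sgNT, which overlap. The part of lymphoid cells in the immunoproteasome values was not tested.

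The single-cell library asked where in the tumor these genes are expressed without a *dgat1a* guide. Proteasome genes were highest in the proliferative state, next in the invasive and melanocytic states, lower in the stressed and inflammatory states, and lowest in the TME. Immunoproteasome genes did not follow this order, with *psme1* and *psme2* highest among melanoma states in the melanocytic state and *psmb9a* and *psmb10* in the inflammatory state. The deposited values are corrected counts, UMI counts that SCTransform brought to a common depth per cell (sums of 5400 to 9687), and not molecules. The states were clustered on these cells, which come from 1 library, so all that follows is a description with no replicate and no test.

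All proteasome genes together made up 0.616% of corrected counts in melanocytic cells (579 cells), 0.516% in stressed (853), 0.778% in proliferative (333), 0.642% in invasive (333), 0.469% in inflammatory (580) and 0.324% in TME cells. The order was the same in cells with at least 2000 raw UMIs, where proliferative cells had 0.781% and TME cells 0.304%. Median raw depth also was highest in proliferative cells, with 15141 UMIs, and lowest in the TME, with 5165.5, against 7979 to 10341 in the other 4 states, and its part in the order was not tested. The states had been clustered and named from the expression of these same cells, so markers describe them and are no check of the labels. Of the readable markers, 8 of 8 S and G2/M genes were higher in proliferative cells than in the other 4 melanoma states (median log2 ratio 5.55). In melanocytic cells, 8 of 9 melanocyte lineage genes were higher than in the other 4 (median 2.28). Of all genes with at least 50 corrected counts in melanoma cells, 57.2% were higher in proliferative and 34.3% in melanocytic cells. Summed macrophage markers had a mean of 2.22 corrected counts in inflammatory cells and 0.658 to 1.31 in the other melanoma states, against 67.5 in the TME. Most of the sum in inflammatory cells was 1 gene, *cd74a*, with 1.78 there, 0.308 to 0.751 in the other melanoma states and 46.2 in the TME. In inflammatory cells *lygl1* had 0.381, and each other macrophage marker 0.019 or less. Of the keratinocyte markers 5 of 5 were higher in invasive cells than in the pool of the other 4 melanoma states, against 52.9% of all genes. *cdh1* and *epcam* had still higher means in stressed cells, 5.53 and 0.0387, against 2.90 and 0.0330 in invasive cells. Summed over the list, means were 11.9 in invasive cells and 1.80 to 6.36 in the other melanoma states, against 67.5 in the TME. *krt4* alone had 8.23 in invasive cells, 0.235 to 1.52 in the other melanoma states and 3.43 in the TME. The part of keratinocyte or macrophage RNA in the values of the states was not tested.

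**Figure D4:**
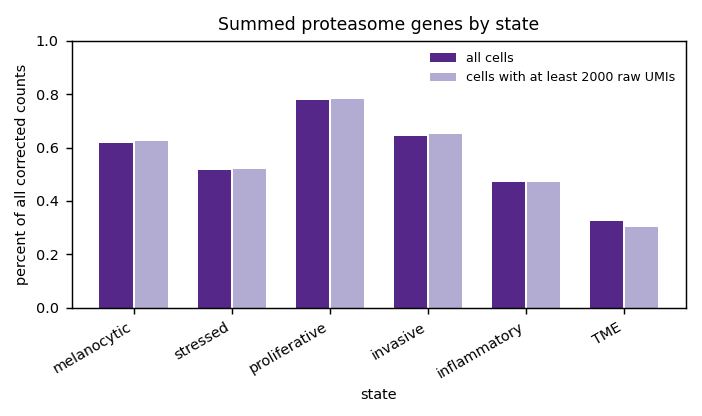
Corrected counts of all proteasome genes as a percent of all corrected counts in each melanoma state and in the TME, for all cells (dark bars) and for cells with at least 2000 raw UMIs (pale bars). The bars of all cells run between 0.324% in the TME and 0.778% in the proliferative state, from 1 library with no replicate.

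A log2 ratio set each gene's share of a state's corrected counts over its share in the pool of the remaining 4 melanoma states, for those genes that reached 50 corrected counts in melanoma cells, which were 11776 in all and 50 members. The member left out, *psme4a*, had 33. In the proliferative state 44 of 50 members were above 0 (against 57.2% of all genes), with a median of 0.46 against 0.11 over all genes. In the invasive state 39 were above 0 (against 52.9%), with a median of 0.18 against 0.04. In the melanocytic state 27 were above 0 (against 34.3%), with a median of 0.03 against -0.26, and the sign of this median changed when the other states were weighted equally (-0.04). In the stressed state 11 were above 0 (against 55.6%), with a median of -0.19 against 0.06, and in the inflammatory state 7 (against 32.6%), with a median of -0.40 against -0.30. Genes with at least 1000 corrected counts in melanoma cells, 2123 in all and 37 members, had other backgrounds. Among them the members' median was 0.46 in the proliferative state against 0.05 over all such genes, 0.20 against 0.04 in the invasive, 0.03 against -0.05 in the melanocytic, -0.20 against -0.02 in the stressed and -0.45 against -0.36 in the inflammatory state. The gap in the melanocytic state was thus smaller among these genes, with 21 of the 37 members and 980 of all 2123 above 0. Relative to the melanoma states together, 5 of 50 members were above 0 in the TME (against 22.4%), with a median of -0.93 against -0.83.

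By gene, 36 of 51 members had their highest mean in the proliferative state, among them all 7 constitutive beta subunits and 8 of 9 alpha subunits. The lowest mean was in the inflammatory state in 32. How many of all genes share these extremes was not counted. By log2 ratio, 57.2% of all genes were above 0 in the proliferative state and 32.6% in the inflammatory state. The median of the alpha ring was 0.57 in the proliferative state, led by *psma6a* (1.05), which had a mean of 1.77 corrected counts there and 0.612 to 1.05 in the other 4 states. Its paralog *psma6b* was the least raised (0.25), with 1.04 in the proliferative state and 0.793 to 0.889 in the others. Another gene of this kind, *psma6l*, had its own order, with a mean of 0.188 in inflammatory and 0.0586 in stressed cells (log2 ratios 0.79 and -1.45) and 0.284 in the TME. Of the beta ring (median 0.46 in the proliferative state), *psmb3* stood highest there (0.84), and the catalytic genes *psmb5*, *psmb6* and *psmb7* lay at 0.39, 0.37 and 0.57. In the inflammatory state these 3 lay at -0.62, -0.0018 and -0.59, so *psmb6* alone of them stayed near 0.

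The regulatory particle was raised in 2 states. All 7 ATPases were above 0 in the proliferative (median 0.42) and in the invasive state (0.34), and 12 of 13 non-ATPases in each (0.47 and 0.42). *psmd11b*, a lid subunit, was the furthest in the invasive state, with a mean of 0.514 corrected counts and a log2 ratio of 1.11, and the furthest below in the inflammatory state, with 0.147 and -1.08. Its paralog *psmd11a* had nearly the same mean in proliferative (0.483) and invasive cells (0.468). The ubiquitin receptor genes *psmd4a* and *psmd4b* differed in their leading state. *psmd4a* had a mean of 0.869 in the melanocytic state (log2 ratio 0.81) and 0.383 to 0.715 in the others, while *psmd4b* had 1.31 in the invasive state (0.57) and 0.747 to 1.01 in the others. *psmd2*, a base subunit seen in this table alone, was sparse, with 184 corrected counts in all melanoma cells, and was lowest in the proliferative state (-0.39).

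Chaperones were highest in the proliferative state (median 0.64) and around 0 in the invasive state (-0.08). *psmd10*, also known as gankyrin, a chaperone of the ATPase ring, had a mean of 0.526 corrected counts in proliferative cells (log2 ratio 1.26) and 0.153 in invasive cells (-0.76), while *psmg3* ran the other way, with 0.556 in proliferative cells (-0.26) and 0.736 in stressed cells (0.29). Of the activators, *psme3*, which encodes a nuclear cap, had 0.387 in proliferative cells (0.67) and 0.109 in inflammatory cells (-1.43). The inhibitor gene *psmf1* varied least in this class, between 0.252 in stressed and 0.366 in melanocytic cells. *psmc3ip*, which is no subunit and whose mammalian counterpart acts in meiotic recombination, had 50 corrected counts in all melanoma cells, none of them in stressed cells, and a log2 ratio of 3.84 in the proliferative state.

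**Figure D5:**
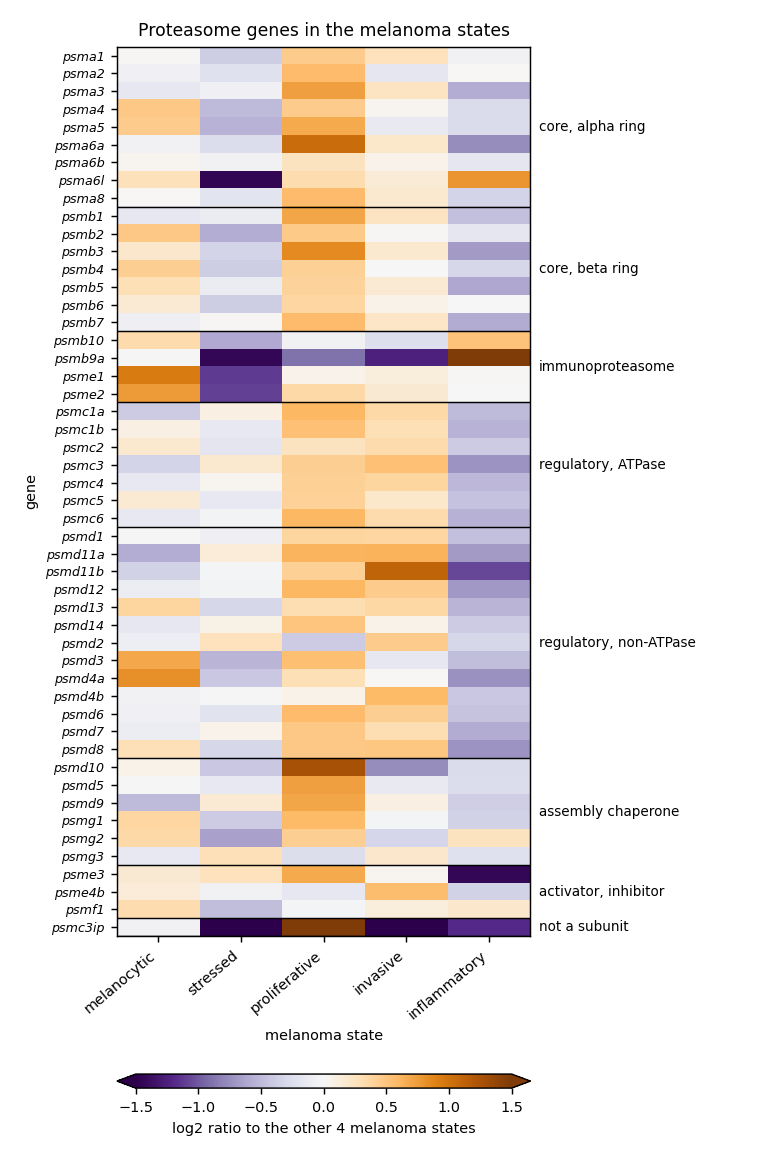
Each row is 1 of the 50 proteasome genes with at least 50 corrected counts, each column a melanoma state, and the colour is its log2 ratio to the pool of the remaining 4 states, orange for above and purple for below, with values beyond 1.5 drawn in the end colours. The proliferative column is orange in most rows, the inflammatory column purple, and the immunoproteasome rows break this pattern.

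Immunoproteasome log2 ratios had medians of 0.54 in the melanocytic, -1.11 in the stressed, -0.00094 in the proliferative, -0.06 in the invasive and 0.26 in the inflammatory state. *psme1* had a mean of 1.31 corrected counts in melanocytic cells (log2 ratio 0.94), 0.469 in stressed cells (-1.12) and 0.833 to 0.877 in the other 3 states. *psme2* had the same extremes, 0.784 in melanocytic (0.75) and 0.312 in stressed cells (-1.09). *psmb10* had 0.359 in inflammatory cells (0.51), 0.323 in melanocytic cells (0.33) and 0.208 in stressed cells (-0.60). In stressed cells all 4 genes were thus below the pool of the other 4 states, though *psmb9a* had a slightly lower mean in invasive cells (0.018) than in stressed cells (0.0199). In the stressed state the constitutive beta ring had a median of -0.33, with *psmb7* (0.02) and *psmb5* (-0.11) near 0.

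*psmb9a*, the counterpart of *psmb6* and nearly unread in the sorted cells, had 116 corrected counts over all melanoma cells, with a mean of 0.105 in inflammatory cells (log2 ratio 2.01) and 0.018 to 0.0415 in the other states. Among cells with at least 2000 raw UMIs, 8.38% of 549 inflammatory cells had a value above 0 (46 cells, exact Clopper-Pearson 95% interval 6.1995 to 11.02%), against 4.32% in melanocytic, 2.47% in proliferative, 1.94% in invasive and 1.92% in stressed cells, and 6.84% in the TME. These shares were not thinned to a common raw depth. The interval treats cells of 1 library as independent draws and rests on corrected values, so it holds no spread between fish. Over all cells, and not only those of this depth, median raw UMIs were 8546 in inflammatory and 7979 in invasive cells. They were 9768 in melanocytic, 10341 in stressed, 15141 in proliferative and 5165.5 in TME cells. The part of depth in the shares was not tested. No cell type known to lack *psmb9a* was at hand to set a background of free RNA. The ratio of *psmb10* to *psmb7* was 0.214 in inflammatory and 0.146 in melanocytic cells, against 0.081 to 0.0887 in the proliferative, stressed and invasive states, and 0.215 in the TME (0.401 in TME cells with at least 2000 raw UMIs).

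Of the 5 members above 0 in the TME, 3 were immunoproteasome genes, *psme2* (0.72), *psmb9a* (0.45) and *psme1* (0.18), beside *psma6l* (1.25) and the activator gene *psme4b* (0.13). The remaining immunoproteasome gene read in single cells, *psmb10*, was below 0 (-1.07). Its mean was 0.125 corrected counts in the TME against 0.277 in the melanoma states, so its high ratio to *psmb7* there was not a raised *psmb10*. *psmb7* was furthest below, with a mean of 0.581 corrected counts in the TME against 2.36 in the melanoma states (-1.94). The antigen processing and interferon genes were above 0 in 14 of 17 in the inflammatory state (median 0.47, against 32.6% of all genes). In the stressed state 3 of 17 were above 0 (median -0.51, against 55.6% of all genes). In the melanocytic state 10 of 17 were above 0 (median 0.02, against 34.3% of all genes). *b2m* had a mean of 17.0 corrected counts in inflammatory cells and 14.2 in melanocytic cells, against 7.39 to 8.93 in the other 3 states. Genes of the list differed in their leading states. *b2ml* was highest in invasive cells (8.16), and *mhc1uba* had 6.39 in inflammatory, 4.73 in invasive and 4.69 in melanocytic cells. Proteasome-associated genes were above 0 in 10 of 14 in the proliferative (median 0.38) and in the invasive state (0.17), and in 3 of 14 in the inflammatory state (-0.43). Of all genes, 57.2%, 52.9% and 32.6% were above 0 in these states, in the same order.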

How the data were processed

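The members and gene lists were chosen with earlier results of these data known, and the genes named were those past an adjusted p of 0.05, the immunoproteasome and catalytic genes, and the extremes of each class. Names given beside this rule were chosen after their values were seen. For sorted tdTomato+ cells, a SMARTer low-input kit was used, and the authors trimmed reads with Trimmomatic, quantified them with Salmon 1.4.0 against GRCz11 and deposited counts divided by DESeq2 1.30.1 size factors, a signal with decimals. Whole reads were not recovered, so depth and counting error are unknown. For single cells, the authors deposited UMI counts corrected by SCTransform in Seurat 4.0.2, a score and not raw molecules, with an annotation of state, raw UMI counts, genes detected and percent of mitochondrial UMIs per cell. The cells had been aligned with Cell Ranger, and doublets were sorted out before capture, with no doublet caller run here.

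Bulk values were fitted as log2(value + 1) with limma 3.58.1 (trended prior variance, no covariate) in R 4.3.3 over all genes, of which only member and list rows are given. Of the bulk table, 280 lines repeated an identifier with the same values and were read once. Single-cell sums had 0.5 added. Fits were repeated with other pseudocounts (0.5 and 10), unfiltered or filtered at 50, after median-ratio rescaling or quantile normalization, with an untrended prior, blocked by replicate number, short of each library in turn, and with libraries 1 and 2 averaged. Single-cell ratios were repeated in cells of 2000 or more raw UMIs or at most 10% mitochondrial UMIs, as per-cell means, with equal weights of states, a pseudocount of 5 and a minimum of 200 corrected counts. Both procedures were run on simulated data as a check of the code. Simulated libraries and cells were independent, and the changes planted in the bulk values were larger than those of the members. The simulations therefore do not show how either procedure does on effects and libraries like these. Python 3.11.15, numpy 2.4.6, scipy 1.17.1, pandas 2.3.3 and matplotlib 3.10.9 were used.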

Additional observations from a re-analysis of the deposited data

How the results depend on the processing

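The deposited bulk values hold no depth and the single-cell states come from 1 library, so no counting error could be given for the bulk values and no replicate error for the states. The median log2 fold change of the proteasome genes was below 0 under all 15 alternatives (-0.85 to -0.39, against -0.64). All of them kept library 1 or 2 of each group. The 4 called members became 1 with a constant prior variance, 1 with the replicate number as a block and 0 with libraries 1 and 2 averaged, and 0 to 19 when a library was left out. The 2038 called genes became 482 with the replicate block and 0 with libraries 1 and 2 averaged, and 108 to 4225 when a library was left out. Whether the library numbers pair the groups is not known. Same-numbered libraries had deviations from their group means with correlations of -0.07, -0.05 and -0.14 across genes, and 3 libraries per group are too few to settle it. The member called under the block was *psmb10*. The causes of these changes were not tested. The log2 fold change of *psmc3ip* (0.15) was -0.42 under quantile normalization and -0.032 to 0.45 when a library was left out, that of *psma6a* (-0.19) was 0.23 with libraries 1 and 2 averaged and -0.74 to 0.14 when a library was left out, and that of *psmc1a* (-0.12) was 0.17 with libraries 1 and 2 averaged and -0.49 to 0.084 when a library was left out. Of the 299 values of named genes under the bulk alternatives, 239 kept their direction and side of the threshold, 40 lost and 12 gained an adjusted p under 0.05. In the single cells the melanocytic median (0.03) was 0.14 in cells with at least 2000 raw UMIs and -0.037 with equal weights of the other states, and the medians of the other 4 states moved by under 0.1 in every alternative. Among single-cell ratios of named genes that were at least 0.1 in size, 2 changed sign. *psmd11a* turned to -0.0033 in the stressed state with equal weights and *psme4b* to 0.024 in the proliferative state with a pseudocount of 5. Ratios nearer to 0 also changed sign, such as *psmd2* in the melanocytic state (-0.08, up to 0.15), and were not counted as turned. Of the other single-cell ratios of named genes, 64 moved by 0.1 or more and 999 did not.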
